A study of Danio rerio with 34 samples.

Results

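The genes described here mark arterial or venous identity of endothelium and the scavenger function of veins: *efnb2a*, *ephb4a*, *nr2f2*, *stab1*, *stab2*, *lyve1b*, *mrc1a* and *dab2*. They were taken by name from a table of raw read counts per gene, as known markers and with earlier results of these data in view. They are 8 of the 47048 genes in the table, and all 8 were among the 21161 genes that passed the filter on low counts.

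RNA-seq counted the transcripts of 3 cell types: endothelial cells (EC), cells of the hemogenic endothelium (HEC), and stem and progenitor cells of the blood (HSPC). The cells were sorted at 36 hpf (hours post fertilization) from zebrafish trunks. All embryos carried the transgenes *kdrl*:mCherry, an endothelial reporter, and *runx1*:en-GFP, a reporter of hemogenic cells, and the sort used these reporters. Siblings were compared with mutants carrying the *dnmt1* allele s872, which affects the maintenance DNA methyltransferase. ECs and HECs had 3 libraries for each genotype and HSPCs had 2, which made 16 libraries in all. How many embryos went into a library, and whether libraries came from separate clutches, is not given in the sources used here, so p-values measure the spread between these libraries, which may be technical. Whether siblings were wild type or heterozygous, and which gate defined HSPCs, is also not given there.

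The genotype labels contradict each other. The title and the genotype entry of every RNA sample match the column names of the count table, but the free description of every RNA sample gives the opposite genotype. Libraries are named here by their columns, and so as in the titles. If the descriptions are right, every mutant versus sibling direction below is reversed, while comparisons of cell types with the genotypes averaged do not depend on it. The transcript of *dnmt1* itself does not settle the labels. Its level was 108, 67.7 and 43.8 CPM (counts per 1000000 counts on genes, with TMM library scaling) in EC siblings against 106, 117 and 77.6 CPM in EC mutants. In HECs it was 119, 138 and 138 CPM in siblings against 78.1, 134 and 119 CPM in mutants. In HSPCs it was 182 and 79.2 CPM in siblings against 235 and 95.6 CPM in mutants. The genotypes overlapped in each cell type, and whether the s872 allele changes the transcript level is not given.

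Artery and vein take on separate identities early in development. Ephrin-B2, a membrane ligand, marks arteries, and its receptor EphB4 marks veins. Nr2f2 (COUP-TFII) is a nuclear receptor that promotes venous fate and, in the mouse, restrains Notch signaling. In zebrafish, venous and lymphatic endothelium also works as a scavenger system: the stabilins Stab1 and Stab2, the mannose receptor Mrc1a and the hyaluronan receptor Lyve1b bind waste macromolecules and colloids in the blood, which the cell then takes up through clathrin-coated pits with the help of adaptors such as Dab2. Hemogenic endothelium lies in the floor of the dorsal aorta, which is an artery, and releases HSPCs by an endothelial-to-hematopoietic transition.

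The libraries held 3125048 to 13201410 counts on genes, with replicate 3 of HECs and HSPCs the deepest. The labels were checked against marker lists (summed CPM of each list, 6, 6 and 4 libraries). Pan-endothelial genes summed to 4489 to 7764 CPM in ECs, 1724 to 2614 CPM in HECs and 25.4 to 60.3 CPM in HSPCs. Hematopoietic genes summed to 209.6 to 1231 CPM in ECs, 1455 to 7054 CPM in HECs and 337 to 2337 CPM in HSPCs. Much of the HEC sum lay in *lcp1* and *cebpa*, with means of 2454 and 801 CPM. The HEC means of *runx1*, *myb* and *gata2b* were 41.1, 112 and 57.8 CPM, so the sum says little of these genes. The HSPC libraries held lower levels of several defining blood stem cell genes than HECs: *runx1* was at 1.44 to 11.5 CPM in HSPCs and 16.4 to 79.6 CPM in HECs, *gata2b* at 0 to 1.97 and 20.03 to 109 CPM, and *myb* at 11.5 to 16.4 and 56.0 to 150.3 CPM. Erythroid genes summed to 36227 to 143371 CPM in HSPCs, against 3053 to 13778 CPM in HECs and 8.61 to 1877 CPM in ECs. Muscle genes reached 3054 CPM and neural genes 2192 CPM in HSPC libraries, and macrophage and myeloid genes were highest in HECs, at 586 to 11182 CPM. The part of these other cells in the results below was not tested beyond the values given, and in bulk libraries fewer cells of a type and less RNA per cell cannot be told apart.

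All 8 genes were expressed in ECs and HECs, and 4 of them were at or near 0 in HSPCs. The scavenger receptors *stab1*, *stab2* and *mrc1a* reached at least 470.3 CPM in every EC library and at least 223 CPM in every HEC library, and no HSPC library exceeded 11.6 CPM for any of them. The venous regulators *nr2f2* and *ephb4a* were already lower in HECs than in ECs. The arterial ligand *efnb2a* ranged from 2.37 to 33.1 CPM among HEC libraries alone, and edgeR called no change of it, where DESeq2 called it lower in HECs and HSPCs than in ECs. A CPM value is not scaled to gene length, so levels are compared here between libraries for the same gene and not between genes.

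**Figure D1:**
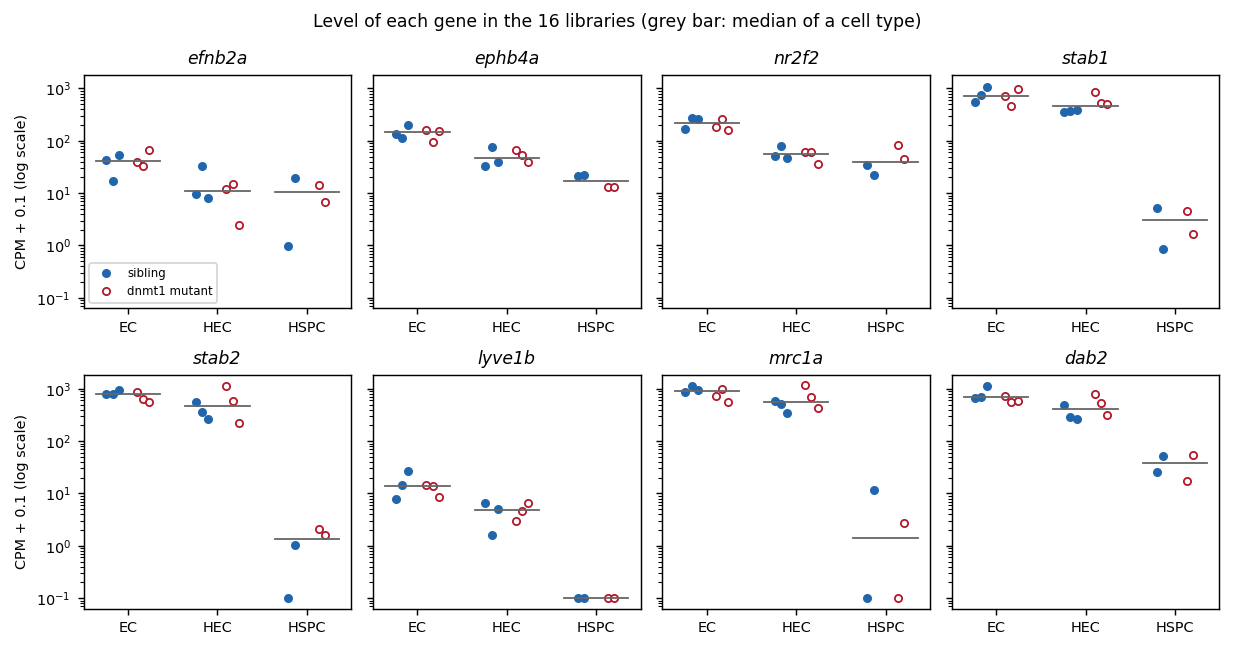
Level of each gene in the 16 libraries, as CPM plus 0.1 on a log axis, by cell type; filled points are libraries titled sibling, open points libraries titled *dnmt1* mutant, and grey bars the median of a cell type. *stab1*, *stab2*, *mrc1a* and *lyve1b* lie far lower in the 4 HSPC libraries than in ECs and HECs, while *nr2f2* and *ephb4a* are already lower in HECs than in ECs.

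Of the venous regulators, *nr2f2* had its highest level in ECs, with a lowest, median and highest library of 163, 222 and 275 CPM. The same values in HECs were 36.5, 56.1 and 80.3 CPM. Every HEC library lay under every EC library. The mean was 219.7 ± 52.1 CPM in ECs (SD, n = 6) and 56.1 ± 15.03 CPM in HECs (SD, n = 6). With the genotypes averaged, *nr2f2* was lower in HECs by a log2 fold change of -1.97 (SE 0.27, adjusted p = 0.00355, edgeR's quasi-likelihood test). A gene is called changed here when the Benjamini-Hochberg adjusted p over all 21161 genes is under 0.05 and the log2 fold change is at least 1 in size.

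*nr2f2* transcript was present in every HSPC library. Its level was 35.2 and 21.8 CPM in HSPC siblings and 81.9 and 45.0 CPM in HSPC mutants. With the genotypes averaged these values overlapped those of HECs, and the change from HECs did not pass (log2 fold change -0.40, SE 0.30, adjusted p = 0.405). The overlap came from the mutants. In siblings both HSPC libraries lay under every HEC library, as held for 14.9% of all genes, and the log2 fold change was -1.06 (SE 0.43, adjusted p = 0.221). In mutants it was 0.27 (SE 0.41, adjusted p = 0.802). The difference of 1.33 between the genotypes (SE 0.59) was not called (adjusted p = 1). Against ECs the level was lower in every HSPC library (log2 fold change -2.37, SE 0.32, adjusted p = 2.16e-04). Mesenchyme also expresses *nr2f2*, and 3 of 6 mesenchyme genes were called lower in HECs than in ECs. The sum of these 6 genes was 237 to 4515 CPM in ECs, 5.21 to 247 CPM in HECs and 259 to 1483 CPM in HSPCs. The part of such cells in the *nr2f2* values was not tested.

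*ephb4a*, the venous receptor, was lower in HECs than in ECs and lower again in HSPCs. The lowest, median and highest library were 96.3, 144 and 199 CPM in ECs and 33.6, 46.8 and 74.5 CPM in HECs. In HSPCs the level was 21.3 and 21.8 CPM in siblings and 13.1 and 12.9 CPM in mutants. The 3 cell types did not overlap. The log2 fold change was -1.49 from ECs to HECs (SE 0.27, adjusted p = 0.00948) and -1.61 from HECs to HSPCs (SE 0.31, adjusted p = 0.00550).

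The arterial ligand *efnb2a* gave no call by edgeR at either step. Its lowest, median and highest library were 16.7, 40.9 and 67.1 CPM in ECs and 2.37, 10.9 and 33.1 CPM in HECs. In HSPCs it was at 0.865 and 19.5 CPM in siblings and 14.2 and 6.61 CPM in mutants. The value of 0.865 CPM rests on 3 counts in the shallowest HSPC library. The log2 fold change was -1.71 for HEC versus EC (SE 0.65, adjusted p = 0.119), -0.30 for HSPC versus HEC (SE 0.72, adjusted p = 0.836) and -2.01 for HSPC versus EC (SE 0.77, adjusted p = 0.0870). DESeq2, which called 14.7% of all genes between HECs and ECs, called *efnb2a* lower in HECs than in ECs (adjusted p = 0.0403) and in HSPCs than in ECs (adjusted p = 0.0390). Leaving out HSPC sibling replicate 3, its highest HSPC library, moved the log2 fold change for HSPC versus EC to -3.78, with 1 library left in that group.

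The stabilin genes were far lower in HSPCs than in HECs. *stab2*, which binds hyaluronan among other ligands, had a lowest, median and highest library of 552, 796 and 958 CPM in ECs and 223, 465 and 1150.5 CPM in HECs. ECs and HECs overlapped, with HEC mutant replicate 1 above every EC library. The log2 fold change between them was -0.58 (SE 0.41, adjusted p = 0.413). In HSPCs *stab2* was at 0 and 0.934 CPM in siblings and 1.97 and 1.52 CPM in mutants, from 0, 11, 9 and 21 counts. It was lower than in HECs by a log2 fold change of -8.95 (SE 0.71, adjusted p = 5.53e-06), the lowest fitted value of the 8 genes at that step.

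The table holds a further row named *stab2_1*, and what sets it apart from the *stab2* row is not given. It took 31.3% to 49.2% of the counts of both rows together in ECs and 32.6% to 52.7% in HECs. Its level followed the other row, from 352 to 753 CPM in ECs and 200.2 to 556 CPM in HECs to 0 to 1.67 CPM in HSPCs. The same log2 fold changes were called or not called with the rows summed as with the *stab2* row alone. Reads of this gene may be split between the rows, so its level in the *stab2* row is uncertain while its pattern is shared.

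*stab1*, the other stabilin, had a lowest, median and highest library of 470.3, 730 and 1073 CPM in ECs and 353, 456 and 866 CPM in HECs. Its log2 fold change for HEC versus EC was -0.64 (SE 0.38, adjusted p = 0.326), and the libraries overlapped. In HSPCs it was at 5.19 and 0.764 CPM in siblings and 4.37 and 1.52 CPM in mutants. These are 9 to 21 counts per library, and every value lies far under the lowest HEC library. The log2 fold change for HSPC versus HEC was -7.43 (SE 0.62, adjusted p = 8.08e-06).

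The mannose receptor gene *mrc1a* had a lowest, median and highest library of 569, 924 and 1149 CPM in ECs and 345, 551 and 1157 CPM in HECs. This was the smallest estimated step of the 8 genes from ECs to HECs (log2 fold change -0.52, SE 0.67, adjusted p = 0.700). In HSPCs it was absent from both replicate 2 libraries and stood at 11.6 CPM in sibling replicate 3 and 2.61 CPM in mutant replicate 3. A count of 0 in the replicate 2 libraries allows up to 0.865 CPM in the sibling and 0.655 CPM in the mutant, for counting error only, so the HSPC libraries differed beyond their depth. The log2 fold change for HSPC versus HEC was -7.66 (SE 1.08, adjusted p = 8.32e-04), and it moved to -11.76 without HSPC sibling replicate 3.

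*lyve1b*, a hyaluronan receptor of venous and lymphatic endothelium, rested on 34 to 168 counts per library in ECs and 6 to 67 in HECs. Its lowest, median and highest library were 7.60, 13.8 and 26.5 CPM in ECs and 1.51, 4.79 and 6.37 CPM in HECs. Although no HEC library reached the lowest EC library, the difference did not pass (log2 fold change -1.64, SE 0.58, adjusted p = 0.0981), and DESeq2 called it (log2 fold change -1.74, adjusted p = 0.00981). No count fell on *lyve1b* in any HSPC library. Against a floor of 3 counts over the 4 HSPC libraries, or 0.0893 CPM, the mean level was at least 49.9-fold higher in HECs and at least 158-fold higher in ECs.

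The clathrin adaptor gene *dab2* was lower in HSPCs than in HECs, but not at 0. Its lowest, median and highest library were 554, 682 and 1149 CPM in ECs and 260.3, 404 and 787 CPM in HECs. HSPCs held 25.7 and 52.0 CPM in siblings and 17.3 and 53.6 CPM in mutants, all under the lowest HEC library. The step from ECs to HECs was not called (log2 fold change -0.72, SE 0.33, adjusted p = 0.188). That from HECs to HSPCs was called (log2 fold change -3.55, SE 0.43, adjusted p = 2.10e-04). Dab2 also serves endocytosis in the pronephros, and pronephros genes summed to 70.3 to 533 CPM in HSPCs, 6.44 to 40.4 CPM in HECs and 1.26 to 79.2 CPM in ECs. The part of such cells in the remaining *dab2* level was not tested.

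Set side by side, the genes changed at different steps. For HEC versus EC, 2 of 8 were called lower and none higher, where 3.63% of all tested genes were called lower. With the replicate block both calls held and the calls over all genes in either direction went from 1507 to 2310. For HSPC versus HEC, 6 of 8 were called lower, against 5.62% of all genes: *stab2*, *stab1*, *mrc1a*, *lyve1b*, *dab2* and *ephb4a*. For HSPC versus EC, 7 of 8 were called lower, all but *efnb2a*, against 7.4% of all genes. The median log2 fold change of the 8 genes was -1.10 for HEC versus EC, with a median of 0.02 over all tested genes. It was -5.49 for HSPC versus HEC, or -4.59 with *lyve1b* at its bound, with 0.04 over all genes. For HSPC versus EC it was -6.17, or -5.79 with the bound, with 0.19 over all genes, an upward shift of the whole table to which those changes are relative. All 15 calls in these 3 comparisons also passed in each alternative fit tried that left at least 2 libraries in every group. ECs are used in more than 1 of these comparisons, as are HECs and HSPCs, so the counts are not independent of each other.

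For HEC versus EC the estimates of *lyve1b* (-1.64), *efnb2a* (-1.71), *ephb4a* (-1.49) and *nr2f2* (-1.97) lay near the median of endothelial genes at large. Those of *stab1*, *stab2*, *mrc1a* and *dab2* lay closer to 0, a difference that was not tested. The 14 pan-endothelial genes tested (such as *cdh5*, *pecam1* and *tie1*) had a median log2 fold change of -1.65 for HEC versus EC, and 8 of them were called lower. Counts of each gene were therefore also expressed as a percentage of the summed pan-endothelial counts of the same library. On this scale *mrc1a* had a lowest, median and highest library of 9.66%, 15.98% and 20.1% in ECs and 19.99%, 27.7% and 44.3% in HECs. *stab1* was at 9.44%, 13.2% and 16.9% in ECs and 15.2%, 23.3% and 33.1% in HECs. For *stab2* the values were 9.36%, 12.4% and 19.1% in ECs and 11.99%, 20.7% and 44.0% in HECs. *dab2* was at 9.71%, 13.0% and 15.8% in ECs and 11.9%, 20.3% and 30.1% in HECs. The HEC median was above the EC median for these 4 genes, and the ranges of all 4 still overlapped. The scavenger receptor gene *lyve1b* did not show such a rise in the median, with 0.144%, 0.236% and 0.342% in ECs and 0.0615%, 0.248% and 0.358% in HECs. *efnb2a* was at 0.233%, 0.774% and 1.14% in ECs and 0.127%, 0.502% and 1.35% in HECs, and its ranges overlapped as well.

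The venous regulators had lower medians in HECs on this scale. *ephb4a* was at 1.61%, 2.57% and 3.57% of pan-endothelial counts in ECs and 1.89%, 2.35% and 3.05% in HECs, an overlapping range. *nr2f2* was at 2.76%, 3.83% and 5.22% in ECs and 1.96%, 2.68% and 3.28% in HECs. The ratio of *nr2f2* to *mrc1a* counts within a library separated the cell types: its log2 was -2.36 to -1.80 in the 6 EC libraries and -4.23 to -2.69 in the 6 HEC libraries. The ratio to *stab2* did not separate them fully, at -2.25 to -1.27 in ECs and -4.22 to -2.16 in HECs, and that to *ephb4a* overlapped, at 0.10 to 1.43 and -0.12 to 0.63. In the 4 HSPC libraries the ratio to *mrc1a* was 0.90 to 7.56, where *mrc1a* was near 0. These percentages and ratios were chosen after the levels were seen and are given as a description without a test. In HSPCs, pan-endothelial counts were too few to serve as a denominator.

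**Figure D2:**
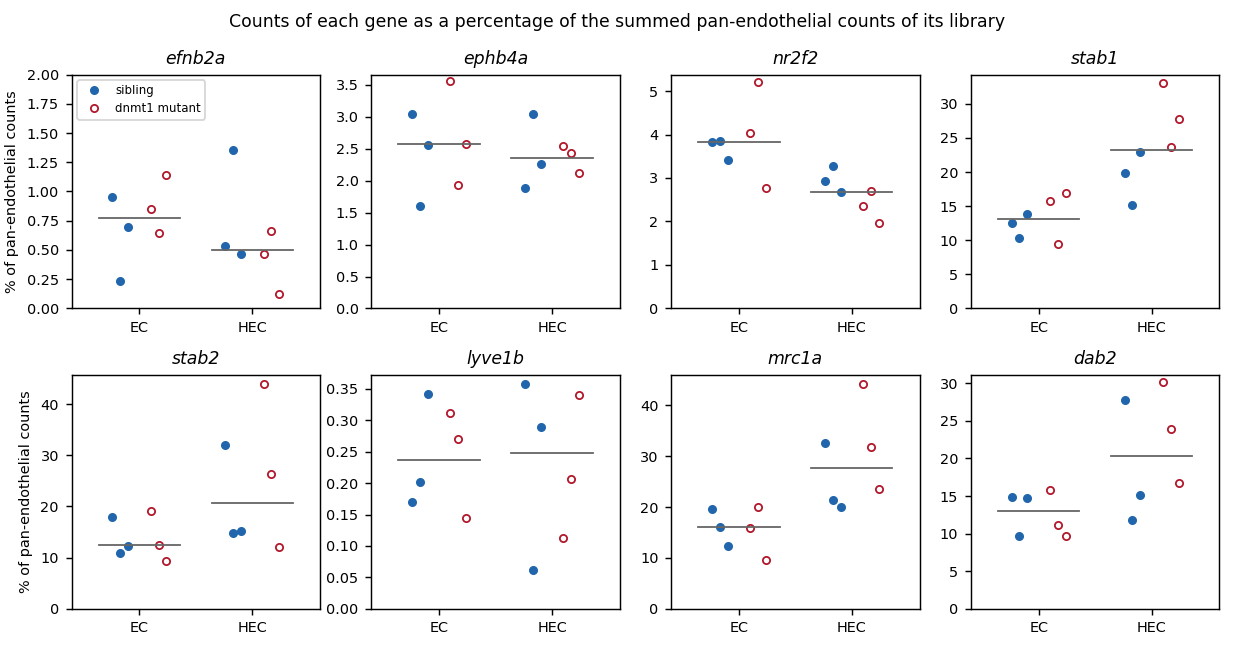
Counts of each gene as a percentage of the summed pan-endothelial counts of its library, in ECs and HECs (6 libraries each; filled points siblings, open points mutants, grey bars medians; each panel has its own axis from 0). The HEC medians of *stab1*, *stab2*, *mrc1a* and *dab2* lie above the EC medians, and that of *nr2f2* lies below.

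Other arterial and other venous genes were called lower in HECs than in ECs, and none was called higher. Of 12 other arterial genes, 5 were called lower in HECs than in ECs, among them the Notch ligand gene *dll4* (643 to 217 CPM in the mean, log2 fold change -1.57, SE 0.30, adjusted p = 0.0114) and the tight junction gene *cldn5b* (612 to 125 CPM, log2 fold change -2.32, SE 0.38, adjusted p = 0.00789). Of 6 other venous genes, 4 were called lower: *ephb4b*, the paralog of *ephb4a*, the neuropilin genes *nrp2a* and *nrp2b*, and the apelin receptor gene *aplnra*. *ephb4b* went from 118 to 45.7 CPM (log2 fold change -1.36, SE 0.25, adjusted p = 0.00948). The median log2 fold change was -1.54 for the arterial list and -1.58 for the venous list. From HECs to HSPCs, 8 of the 12 arterial genes and 4 of the 6 venous genes were called lower, and none higher. The 2 venous genes not called at that step were *nrp2a* and *nrp2b*, with means of 53.0 and 68.1 CPM in HSPCs against 38.2 and 88.7 CPM in HECs.

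Other scavenger and endocytosis genes followed no common direction. Of 16 such genes, 3 were called lower in HECs than in ECs: the scavenger receptor gene *scarf1* and the lipoprotein receptor genes *ldlra* and *lrp1aa*. From HECs to HSPCs 3 were called lower (*lyve1a*, *scarb2a* and *scarf1*) and 3 higher (*lrp1aa*, *lrp1ab* and *ap2m1a*). *lyve1a*, the paralog of *lyve1b*, behaved like the stabilins: its mean was 55.8 CPM in ECs, 54.0 CPM in HECs and 0.899 CPM in HSPCs, and its change from ECs to HECs was not called (log2 fold change -0.07, SE 0.80, adjusted p = 1). *scarf1* was at 212, 70.6 and 0.0181 CPM in the same order. The clathrin and AP-2 genes, which every cell uses, summed with the rest of this list to 1912 to 2286 CPM in ECs, 1475 to 2135 CPM in HECs and 1698 to 3449 CPM in HSPCs. Of these, only *ap2m1a* was called in any averaged comparison, higher in HSPCs at a mean of 1549 CPM against 653 CPM in HECs and 684 CPM in ECs.

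Pan-endothelial genes were also far lower in HSPCs, though not all near 0: *fli1a*, an endothelial transcription factor gene, was at 11.1 to 30.3 CPM and *kdrl* at 0 to 16.9 CPM in the 4 libraries, against at least 508 and 84.2 CPM in HECs. The *kdrl* reporter was used in the sort, so this is no independent result. All 14 tested were called lower in HSPCs than in HECs, with a median log2 fold change of -7.75. *tie1* had no count in any HSPC library, which makes its mean at least 385-fold higher in HECs. Some hematopoietic genes moved the other way at the first step. *myb*, *lcp1*, *rac2* and *cebpa*, 4 of 10 tested, were called higher in HECs than in ECs, and none was called lower. *runx1*, *gata2b* and *cebpa* were called lower in HSPCs than in HECs. Macrophages use stabilin and mannose receptors in other species, so the macrophage and myeloid list was set beside the scavenger genes. Its sum ranged from 0.465 to 1087 CPM in ECs, 586 to 11182 CPM in HECs and 79.5 to 1764 CPM in HSPCs, and *stab1*, *stab2* and *mrc1a* stayed at or under 11.6 CPM in those HSPC libraries. The sum was carried by the neutrophil gene *mpx*, with a mean of 4947 CPM in HECs and 590.5 CPM in HSPCs. The macrophage gene *mpeg1.1* had a mean of 6.40 CPM in HECs and 4.91 CPM in HSPCs. Another gene of this list, *marco*, had means of 59.4 and 47.2 CPM. Its libraries ranged from 1.13 to 167 CPM in HECs and from 0 to 159 CPM in HSPCs. The sum therefore says little of macrophages, and their part was not tested.

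**Figure D3:**
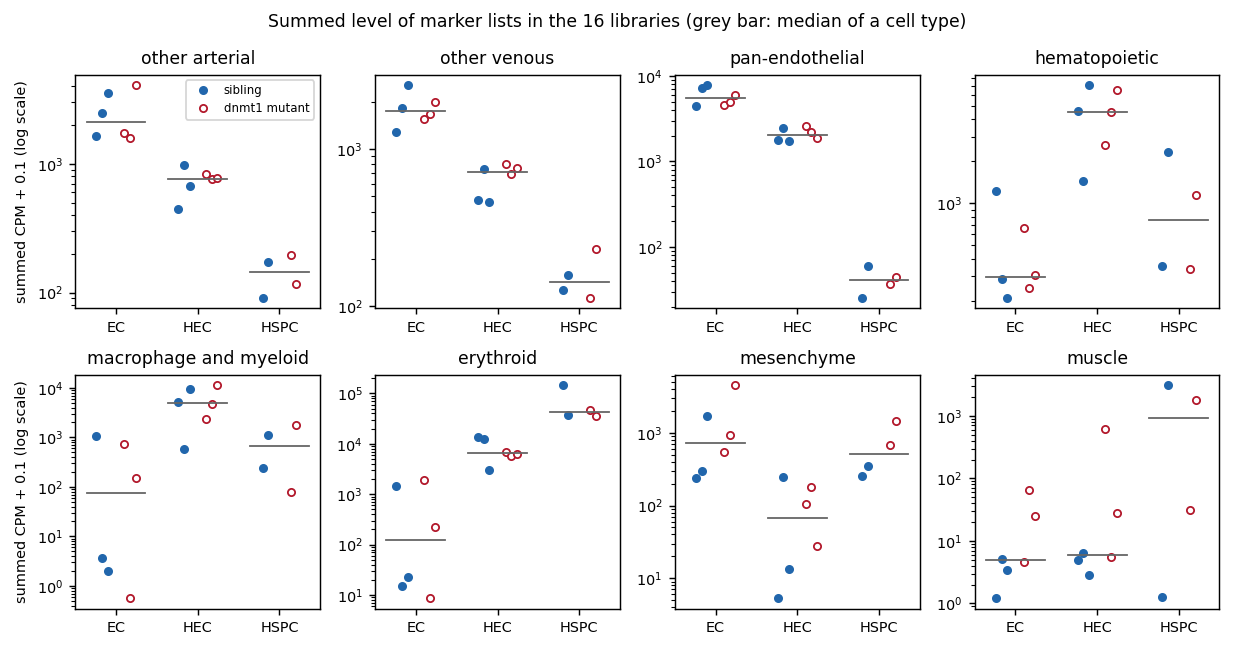
Summed level of 8 marker lists in the 16 libraries, as summed CPM plus 0.1 on a log axis (filled points siblings, open points mutants, grey bars medians). Arterial, venous and pan-endothelial sums step down from ECs to HECs to HSPCs, erythroid sums step up, and myeloid and mesenchyme sums spread widely within a cell type.

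No difference between the genotypes was called for any of the 8 genes in any cell type. edgeR called 0 of the 21161 tested genes between mutants and siblings in ECs, HECs or HSPCs (0% each). At an unadjusted p under 0.05 with the same fold minimum it gave 655, 564 and 398 genes (3.1%, 2.67% and 1.88%), and among the 8 genes it gave 0, 0 and 1. DESeq2 called 34, 27 and 33 genes and none of the 8. In simulated counts, 200 of the 21161 genes, drawn at random above a minimum mean count, were changed and all others were not. At a log2 fold change of 1 between genotypes, edgeR found 0 of the 200 in each cell type. It also found 0 of 200 at that size in each cell type comparison with the genotypes averaged. That size equals the fold minimum of the call, so genes estimated under it could not be called. With 200 genes changed, the adjusted p is also stricter than in the data, where 1507 to 3353 genes were called between cell types. The 0 of 200 therefore does not give the power of those comparisons. At a log2 fold change of 3 between genotypes edgeR found 45 of 200 in ECs, 51 in HECs and 12 in HSPCs. The lack of calls therefore does not show that the genotypes were alike.

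In ECs 7 of 8 estimates were below 0 and 1 was above. They ranged from -0.44 for *dab2* (SE 0.47) to 0.29 for *efnb2a* (SE 0.90), and the genotypes overlapped for all 8 genes. In HECs 6 of 8 estimates were above 0. The largest were those of *stab1* (log2 fold change 0.77, SE 0.54), *stab2* (0.72, SE 0.58), *mrc1a* (0.67, SE 0.94) and *dab2* (0.64, SE 0.47), each with adjusted p = 1. For *stab1* the HEC siblings were at 353, 371 and 395 CPM and the HEC mutants at 866, 527 and 516 CPM, which do not overlap, as held upward for 2.35% of all genes. For *stab2* the HEC siblings were at 569, 362 and 261 CPM and the mutants at 1150.5, 585 and 223 CPM. Replicate numbers were taken to pair the genotypes within ECs and within HECs. In HECs the mutant lay above the sibling of the same number in all 3 pairs for *stab1*, *mrc1a* and *dab2*, as held for 9.39% of all genes, and in 2 of 3 pairs for *stab2*. For *mrc1a* the pairs were 581 and 1157, 521 and 708, and 345 and 438 CPM, sibling first. For *dab2* they were 496 and 787, 290.3 and 533, and 260.3 and 312 CPM. In ECs *mrc1a* was lower in the mutant in all 3 pairs, as held for 9.95% of all genes. With the pairs as a block none of these was called (adjusted p = 1 for each). HEC mutant replicate 1 was the highest HEC library for *stab1*, *stab2*, *mrc1a* and *dab2*, and without it the estimates dropped to 0.48, 0.03, 0.25 and 0.27.

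In HSPCs only *nr2f2* reached an unadjusted p under 0.05, with 81.9 and 45.0 CPM in mutants over 35.2 and 21.8 CPM in siblings (log2 fold change 1.16, SE 0.46, adjusted p = 1). Over the 12 alternative fits, some with 1 library left in a group, the estimate ranged from 0.67 to 1.53. Those of *stab2* (0.84 to 6.39) and *ephb4a* (-0.77 to -0.70) also kept their sign, and all fits reuse the same libraries. For each of these genes both mutants lay on the same side of both siblings. Leaving out a library could therefore not turn the sign, and the kept signs say nothing of stability. Mutants lay above siblings without overlap for 11.4% of all genes in this 2 against 2 comparison. *ephb4a* was at 13.1 and 12.9 CPM in mutants under 21.3 and 21.8 CPM in siblings (log2 fold change -0.73, SE 0.46, adjusted p = 1). The share of all genes that separated downward is not given here, so this separation is a description only. *lyve1b* was at 0 in both genotypes and has no fold change.

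**Figure D4:**
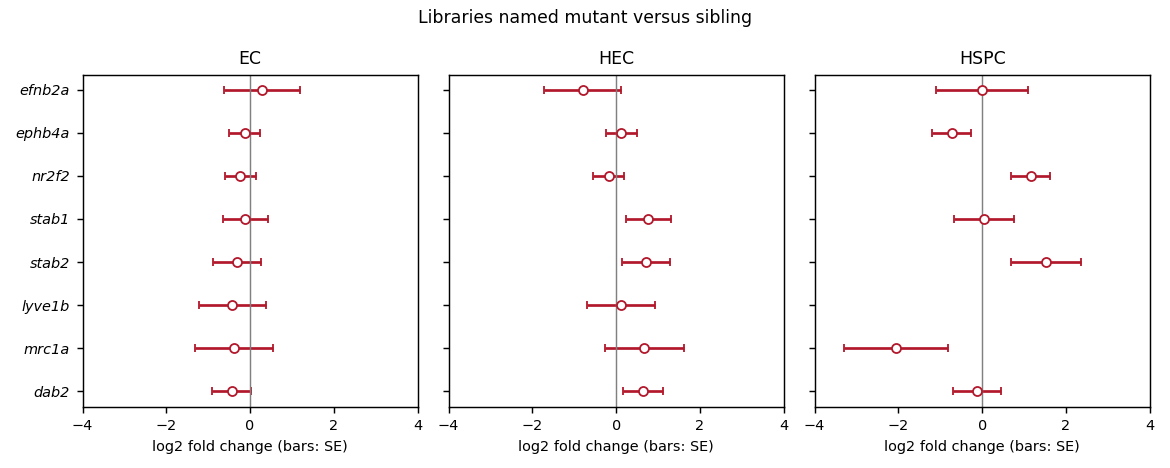
Log2 fold change of the libraries titled *dnmt1* mutant over those titled sibling, with standard errors, for each gene in ECs, HECs and HSPCs. No value was called; *lyve1b* is left out in HSPCs, where it had no count. Estimates in ECs range from -0.44 to 0.29, and the free descriptions of the samples would reverse every sign.

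Within each genotype, with 2 or 3 libraries a group, fewer cell type differences were called. For HEC versus EC edgeR called none of the 8 genes in siblings (0.0189% of all genes) and none in mutants (0.00473%). At an unadjusted p under 0.05 with the fold minimum, 13.3% and 14.4% of all genes passed. At an unadjusted p under 0.05 without that minimum, 4 of the 8 genes passed in siblings and 3 in mutants. DESeq2 called *nr2f2* and *ephb4a* in each, where it called 5.4% and 5.79% of all genes. At the study's threshold of an adjusted p under 0.5, DESeq2 called 6 and 4 of the 8, where it called 25% and 27.1% of all genes. With the replicate number as a block, which pairs ECs with HECs, *nr2f2* was called in siblings (log2 fold change -2.04, adjusted p = 0.0156) and in mutants (-1.93, adjusted p = 0.0157), where 0.936% and 0.794% of all genes were. Without the block the estimates of *nr2f2* were similar in siblings (log2 fold change -2.00, SE 0.38, adjusted p = 0.0715) and in mutants (-1.94, SE 0.38, adjusted p = 0.121). For the scavenger genes and *dab2* the estimates differed more: *stab1* -1.08 in siblings and -0.20 in mutants, *stab2* -1.10 and -0.07, *mrc1a* -1.05 and 0.00, and *dab2* -1.26 and -0.18. The differences between genotypes, from 0.89 to 1.08, had standard errors of 0.66 to 1.33, and none was called (adjusted p = 1 for each).

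HSPC versus HEC gave 5 calls in siblings and 6 in mutants, all lower, where 1.39% and 2.07% of all genes were called. *stab1*, *stab2*, *lyve1b*, *mrc1a* and *dab2* were called in both, and *ephb4a* in mutants. The sibling count dropped to 2 without HEC sibling replicate 1 and to 3 without HEC sibling replicate 3. The calls over all genes dropped as well, from 294 to 143 and 142. Leaving out an HSPC library leaves 1 in its group, so no count is given for that. How far these counts rest on a single HSPC library is therefore not shown. HSPC versus EC gave 7 calls in siblings, where 5.38% of all genes were called, and 6 in mutants, where 3.51% were. *nr2f2* in mutants was the one that differed (log2 fold change -1.67, SE 0.44, adjusted p = 0.0514), against -3.06 (SE 0.47, adjusted p = 0.00154) in siblings. It was called in mutants as well with the replicate block (adjusted p = 0.00631, with 6.12% of all genes called) and with DESeq2 (adjusted p = 0.00709, with 9.29%), which gave 7 genes in both genotypes. The difference of 1.39 (SE 0.59) was not called (adjusted p = 1).

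Across the 16 libraries, which span cell types with and without them, the scavenger genes and *dab2* varied together. Pearson's r of log2 CPM was 0.96 for *stab1* with *stab2*, 0.96 for *stab2* with *mrc1a* and 0.97 for *mrc1a* with *dab2*. Over the 12 EC and HEC libraries alone, in which these genes did not approach 0, the values were 0.62, 0.89 and 0.84, and *stab2* with *dab2* gave 0.93. Other pairs were looser: *stab1* with *mrc1a* gave 0.54, and *lyve1b* gave 0.52 with *stab1*, 0.40 with *stab2* and 0.41 with *mrc1a*. The artery-vein genes had r of 0.86 for *efnb2a* with *ephb4a*, 0.78 for *efnb2a* with *nr2f2* and 0.89 for *ephb4a* with *nr2f2* in those 12 libraries. The arterial ligand and the venous regulators were thus high and low in the same libraries. Pairs across the roles ran from 0.34 for *efnb2a* with *lyve1b* to 0.73 for *ephb4a* with *stab1* in those 12 libraries. They lay under the artery-vein pairs and under the pairs among *stab2*, *mrc1a* and *dab2*. The pairs of *stab1* or *lyve1b* with scavenger receptor genes given above lay within the range across roles, so these genes were not set apart. No grouping was tested. All values share libraries and cell types, so they are a description.

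The genes most like each of the 8 were sought by Pearson's r of log2 CPM over the 16 libraries among 13314 tested genes with a mean of at least 5 CPM. *stab2_1* was closest to *stab2* (r = 0.99), followed by *afap1l1b* and *si:ch211-145b13.6* (both 0.98). The nearest to *stab1* were *aplnra*, *si:ch211-145b13.6* and *pcdh12* (each 0.98). *mrc1a* was nearest to *tmem88a*, *csrp1a* (both 0.98) and *etv2* (0.97), an early endothelial transcription factor gene. *dab2* was nearest to *arhgef9b*, *etv2* and *asap1b* (each 0.98), and *lyve1b* to *calcrlb*, *LOC101882770* (both 0.98) and *asap1b* (0.97). *ephb4a* was nearest to *klf2b*, a flow-responsive transcription factor gene, *si:dkey-23i12.7_1* and *klf6a* (each 0.97). *nr2f2* was nearest to the Notch receptor gene *notch1a*, *smad5* (both 0.96) and *grb10a* (0.95). *efnb2a* had looser neighbours, *mprip*, *si:dkey-82f1.1* and *sema6a* (each 0.90). Of these 24 neighbours, which are 21 distinct genes, 5 were also among the 3 nearest by Spearman's rho with ties counted and 4 with ties broken by name, so the exact neighbours depend on the measure.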

How the data were processed

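RNA was measured in 16 libraries, per the study's methods from equal numbers of sorted cells and low-input libraries; the labels instead describe single-cell 3′-biased libraries. The authors trimmed reads with cutadapt, aligned them to GRCz11 with HISAT2 2.2.1 and counted them per gene with HTSeq 0.12.4, per the labels and methods; annotation and strand setting are not given in the sources used here. The deposited raw counts were used without change. Reads on no gene (45.8% of reads) stayed out of library sizes and tests. edgeR 4.0.16 in R 4.3.3 fitted 1 coefficient per cell type and genotype to all 16 libraries (TMM scaling, filterByExpr, robust quasi-likelihood), and SE is the log2 fold change divided by the square root of F. The script was tested on simulated data.

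The 8 genes and the marker lists were chosen with earlier results of these data known. Besides the 8 genes, *dnmt1* and, for each of the 8, the 3 genes with the most similar pattern are named, and from the lists the genes that were called, with up to 4 examples by smallest p in HSPC versus EC; the percentages of endothelial counts and the ratios between genes were chosen after values were seen. *plvapb*, *laptm5* and *hbae1.1* did not match a row, and *itga2b* and 1 pronephros gene did not pass the filter. Intervals and floors cover counting error only.

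In ECs and HECs, the sibling and the mutant column with the same number in their names shared their deviations from the group means. Over the 6 pairs r was 0.19 to 0.43, against -0.28 to 0.04 for other numbers. With 2 libraries in each HSPC group, deviations mirror each other, so r of 0.45 for the same number fixed -0.45 for other numbers. Deviations from a group mean cancel out within the group, which pushes r for other numbers down in ECs and HECs as well. Same numbers can also share depth, as in HEC replicate 3, with 13060881 counts in siblings and 11224134 in mutants. What else a number stands for is not given. The block within cell type took the replicate numbers to pair the genotypes in all 3 cell types. For HSPCs this is an assumption, as the size of r there is fixed by the mirroring. The blocked fit changed no genotype call. Between cell types r was 0.10 to 0.24 for the 12 same-numbered pairs of ECs and HECs (-0.15 to -0.03 for other numbers). It was 0.12 to 0.22 for the 8 of HECs and HSPCs (-0.22 to 0.09). For the 8 of ECs and HSPCs it was 0.08 to 0.16 (-0.16 to 0.04). Values with HSPCs mirror each other in the same way. The replicate block used the number across all cell types. WGBS tiles and the authors' fold change tables, which hold their own comparisons of expression and methylation, were not used here.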

Additional observations from a re-analysis of the deposited data

How the results depend on the processing

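The 15 calls with the genotypes averaged passed in every alternative counted here. These were RLE scaling, no filter, the replicate block, only the compared groups, DESeq2 1.42.0, no fold minimum and each EC or HEC library left out. Chosen after seeing the data were a fit without globin genes and a fit with both *stab2* rows summed. Fits without an HSPC library are not counted, as 1 library then remains in its group. DESeq2 called 4 genes for HEC versus EC at adjusted p under 0.05 (14.7% of all genes) and at 0.5, the study's threshold (32.8%), in place of 2, adding *efnb2a* and *lyve1b*. In siblings HEC versus EC went from 0 called to 1 without the filter, where the calls over all genes went from 4 to 53. It went to 1 with the replicate block (0.936% of all genes) and to 2 and 6 with DESeq2 at the 2 thresholds (5.4% and 25%). When 1 library was left out it ranged from 0 to 2. It was 1 without EC sibling replicate 1, with 190 calls over all genes, and 2 without HEC sibling replicate 2, with 166. In mutants it went to 1 with the block (0.794%) and to 2 and 4 with DESeq2 (5.79% and 27.1%). HSPC versus EC in mutants went from 6 to 7 with the block and with DESeq2. HSPC versus HEC fell to 0 in siblings and 3 in mutants with only the compared groups fitted, which leaves fewer libraries to estimate the spread. Over all genes that fit called 0 in siblings and 507 in mutants. With 1 HEC library left out the count ranged from 2 to 4 in siblings and from 5 to 6 in mutants. Over all genes these fits called 142 to 325 in siblings and 155 to 185 in mutants. Counts without an HSPC library are not given, as 1 library then remains in its group. The block raised the calls over all genes from 1507 to 2310 (10.9%) for HEC versus EC, and from 294 to 588 in siblings and 438 to 812 in mutants for HSPC versus HEC, and changed no other count by over 1.5 times among the 8 genes. Over all genes, HEC versus EC gave 1507 calls by edgeR, 3119 by DESeq2 and 429 to 2181 with 1 library left out. In siblings DESeq2 called 1143, 1459 and 2480 genes for HEC versus EC, HSPC versus HEC and HSPC versus EC, where edgeR called 4, 294 and 1139. In mutants it called 1225, 1840 and 1965, where edgeR called 1, 438 and 743. By Spearman's rho 4 of the 24 neighbours were shared, or 5 with a tie counted.

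No value that was called changed sign. For mutant versus sibling in HSPCs, *efnb2a* (-0.01) became 0.78 with the block within cell type, 0.15 with only the compared groups and 0.0072 with DESeq2, and *stab1* (0.04) became -0.036 with only the compared groups. Leaving out 1 library gave these ranges where a sign changed. In ECs they were -0.088 to 0.62 for *efnb2a*, -0.29 to 0.12 for *ephb4a*, -0.41 to 0.16 for *stab1* and -0.77 to 0.12 for *lyve1b*. In HECs they were -1.23 to 0.14 for *efnb2a*, -0.075 to 0.55 for *ephb4a*, -0.33 to 0.10 for *nr2f2* and -0.28 to 0.52 for *lyve1b*. In HSPCs they were -0.96 to 3.56 for *efnb2a*, -0.85 to 1.83 for *stab1*, -8.18 to 6.17 for *mrc1a* and -1.17 to 0.48 for *dab2*. For *efnb2a* in HSPC versus HEC the range was -2.08 to 0.18. The causes were not tested. HSPC values of *stab1*, *stab2* and *lyve1b* rest on few counts, and those of *mrc1a* ran from 0 to 137 counts between libraries. Both limit genotype comparisons there.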
